A study of Rattus norvegicus with 18 samples.

Results

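Primordial germ cells, the embryonic precursors of sperm and eggs, were compared between embryonic day (E) 10.5 and E9.5 in the rat. The comparison took in 4 of the 18 libraries of the study, 2 labelled replicates at each stage, and rested on a single table of RPKM values, in which reads are scaled to the length of the gene and to the total mapped in the library. The animals were of the Wistar strain Crlj:WI and carried Prdm14-Venus, a fluorescent reporter of the germ cell gene Prdm14. Both stages shared strain and genotype, and neither the sex, the site of dissection nor the sorting gate was given in the labels used here. The labels do not say whether replicates came from separate animals or pools, so that tests reflect the scatter among libraries, which may be technical. Messenger RNA of few cells was amplified from total RNA before sequencing. A gene was tested when it reached at least 1 RPKM in at least 2 of the 4 libraries, which left 11873 of 32545 lines of the table.

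In rodents, primordial germ cells are set aside from the proximal epiblast under bone morphogenetic protein signals, switch on a network around Prdm1, Prdm14 and Tfap2c, and keep or regain genes of pluripotent cells. They leave the base of the allantois, travel through the hindgut to the genital ridges, and on the way lose DNA methylation. After arrival they turn on genes such as Dazl and Ddx4, which encode RNA-binding proteins that license germ cells for later sexual differentiation.

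The label of germ cells was matched at both stages by Tfap2c and Nanos3, whereas Prdm14, the reporter gene, read 0.299 RPKM in E10.5 replicate 1. The E9.5 libraries also held markers of other cell types, given below. Tfap2c, a transcription factor of germ cell specification, stood at 206 and 287 RPKM in the E9.5 libraries and at 366 and 334 RPKM in the E10.5 libraries. Nanos3, an RNA-binding protein that germ cells need to survive migration, stood at 84.1 and 62.5 RPKM at E9.5 and at 90.0 and 150.05 RPKM at E10.5. Both genes were present in all 4 libraries, the E10.5 values lay above the E9.5 values, and neither difference passed the test (limma, Benjamini-Hochberg adjusted p = 0.0857 for Tfap2c and 0.197 for Nanos3). Without group weights, and without E9.5 replicate 2, the rise of Tfap2c did pass (adjusted p from 0.0290 to 0.889 over the alternatives). Eif2s3y, a gene of the Y chromosome, read 16.4 and 122 RPKM in the E9.5 libraries and 22.9 and 55.5 RPKM in those of E10.5, so the replicates of a stage differed in the level of a male gene.

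Of the genes tested, 2019 passed an adjusted p of 0.05 in limma, or 17.0%. At E10.5, 889 genes were higher (7.49%) and 1130 were lower (9.52%), and these shares are the background for every gene group below. A gene at under 1 RPKM in both libraries of a stage entered the test only through the other stage, where it was higher, so its direction was set by the filter and counts and medians over tested members describe them without supporting a direction. Where counts of a group are given with 1 library left out, they follow the order E9.5 replicate 1, E9.5 replicate 2, E10.5 replicate 1 and E10.5 replicate 2. The libraries of the stages did not overlap for 2783 genes higher at E10.5 (23.4%) and 4361 lower (36.7%). With a log2 difference of at least 1 as a further condition, 725 genes were higher (6.11%) and 1000 lower (8.42%). Differences are given throughout as E10.5 minus E9.5 after taking log2(RPKM + 1), a scale that compresses changes near 0, with the standard error. The median difference over all tested genes was -0.20. It was -0.13 after median-ratio scaling and 0.01 after quantile normalization.

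**Figure D1:**
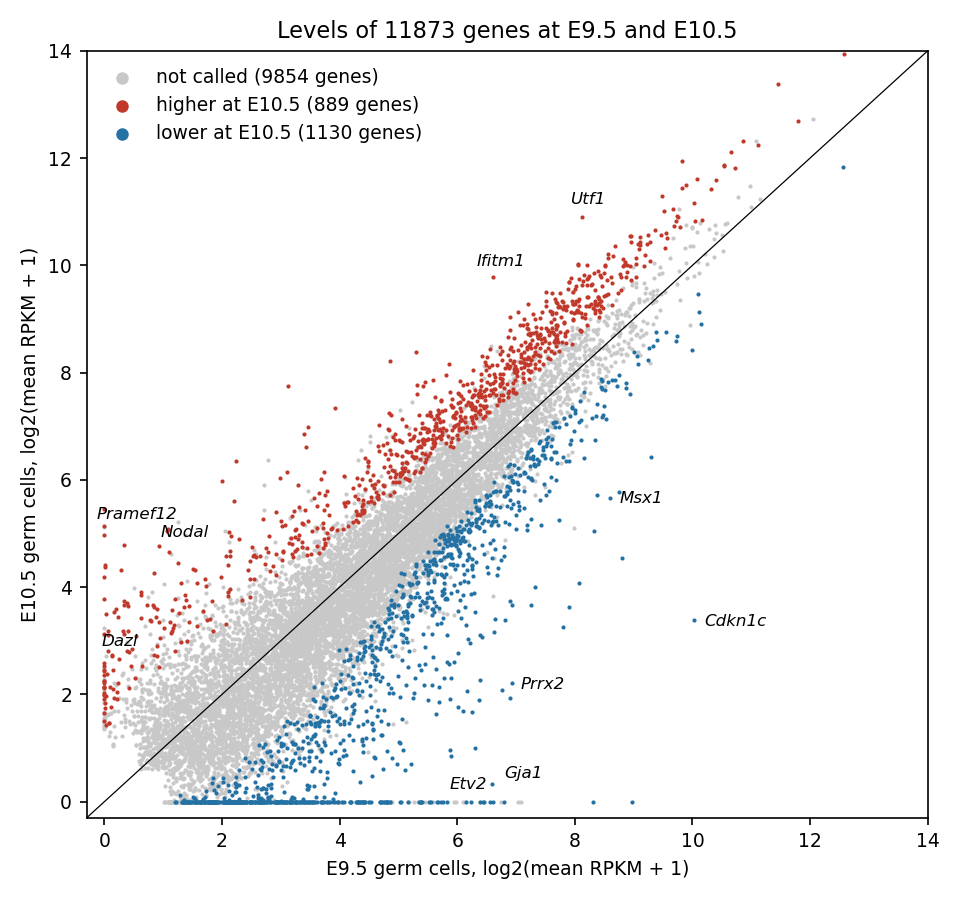
Mean level of each tested gene at E9.5 (horizontal) and E10.5 (vertical), as log2(mean RPKM + 1), with 1 point per gene and the line of equal levels. Red points are the 889 genes higher at E10.5 and blue points the 1130 lower ones; Etv2 and many other blue points lie on the bottom edge, at 0 in both E10.5 libraries.

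The E10.5 libraries held more zeros. In the E10.5 replicates 885 and 944 tested genes had a value of 0 (7.45% and 7.95%), against 237 and 165 in those of E9.5 (1.996% and 1.39%). At E11.5 the numbers were 596 and 697, and in the libraries of E12.5 and E15.5 they ran from 326 to 518. The table gives no read counts, so relative depth was read from ratios of values under 50 RPKM, taking the commonest ratio, which rested on 45 to 111 genes per library. Against E9.5 replicate 1, depth came to 98.4% in E9.5 replicate 2, to 19.8% and 21.1% at E10.5, and to 21.9% and 21.3% at E11.5. In the libraries of E12.5 and E15.5 relative depth ran from 96.3% to 115%. The zeros lay mostly among low genes: of genes with an E9.5 mean of 1 to 2 RPKM, 97 of 808 (12.005%) were at 0 in both E10.5 libraries, and of those with 50 RPKM or more, 0.769%. The E11.5 libraries, of a like depth, gave 9.03% and 0.664% for these levels. In all, 473 tested genes were at 0 in both E10.5 libraries, of which 294 passed as lower, and 44 were at 0 in both E9.5 libraries, of which 23 passed as higher. Of the 1130 genes that fell, 690 still had an E10.5 mean of at least 1 RPKM. Depth and stage cannot be told apart in these 4 libraries, and a value of 0 at E10.5 is given below only as listed at 0.

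**Figure D2:**
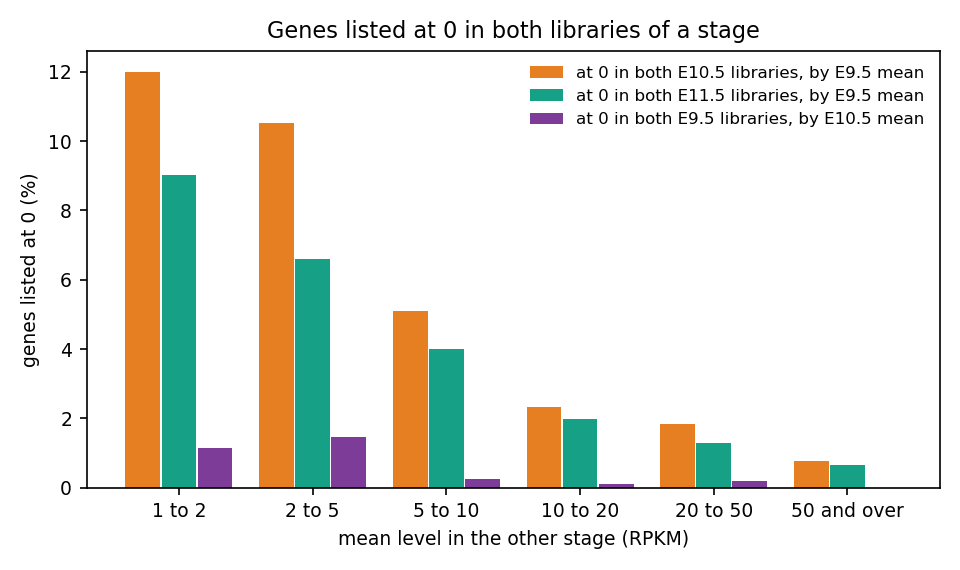
Share of genes listed at 0 in both libraries of a stage (vertical, percent), by mean level in the other stage (horizontal, RPKM). Bars for E10.5 and E11.5 use the E9.5 mean and fall from 12.005% and 9.03% in the lowest class to 0.769% and 0.664% in the highest; bars for E9.5 use the E10.5 mean and reach at most 1.46%.

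Genes of germ cell identity differed in direction. Of 14 tested, 4 were higher at E10.5, 1 was lower and 9 did not pass, with a median difference of 0.60 against -0.20 over all genes. The other 2 of the 16 listed, Dppa3 and Dppa5, were under the filter. The founding regulators were among the genes that did not pass. Prdm1, the repressor that starts the germ cell program, read 23.4 and 26.2 RPKM at E9.5 and 13.7 and 20.1 RPKM at E10.5. Prdm14 read 11.5 and 3.64 and 0.299 and 11.6 RPKM, with the low values in 1 library of each stage. Dnd1, which protects germ cell transcripts, read 29.6 and 107 and 125 and 103 RPKM, and Kit, the receptor for stem cell factor, 67.9 and 85.3 and 45.4 and 64.8 RPKM. The stages overlapped for Prdm14 and Dnd1. Dppa3, which shields DNA methylation in the early embryo, read 0.106 and 31.3 RPKM at E9.5 and 0.537 and 0 RPKM at E10.5, so that a single library carried it.

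The risers of this group were large. Ifitm1, an interferon-induced membrane protein found on early germ cells, read 94.3 and 99.1 RPKM at E9.5 and 991 and 777 RPKM at E10.5, a 9.14-fold ratio of means (log2 difference 3.17 ± 0.25, adjusted p = 6.84e-05). Its relative Ifitm3 rose from 35.5 and 41.4 to 348 and 319 RPKM (3.09 ± 0.21, adjusted p = 2.66e-05). The Ifitm genes are close copies of each other, and how reads matching several were assigned is not given in the sources used here. Alpl, the tissue-nonspecific alkaline phosphatase by which germ cells have long been stained, rose from 25.03 and 31.5 to 135 and 161 RPKM (2.35 ± 0.24, adjusted p = 0.000244). In each case both E10.5 libraries lay far above both E9.5 libraries. Lin28a, which blocks the maturation of let-7 microRNAs, went the other way, from 177 and 163 to 26.8 and 42.4 RPKM (-2.30 ± 0.23, adjusted p = 0.000244), with 75.0 and 75.4 RPKM at E11.5. These 4 calls held in all alternatives, where adjusted p ran up to 0.00842 for Ifitm1, 0.00842 for Ifitm3, 0.0150 for Alpl and 0.0177 for Lin28a.

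**Figure D3:**
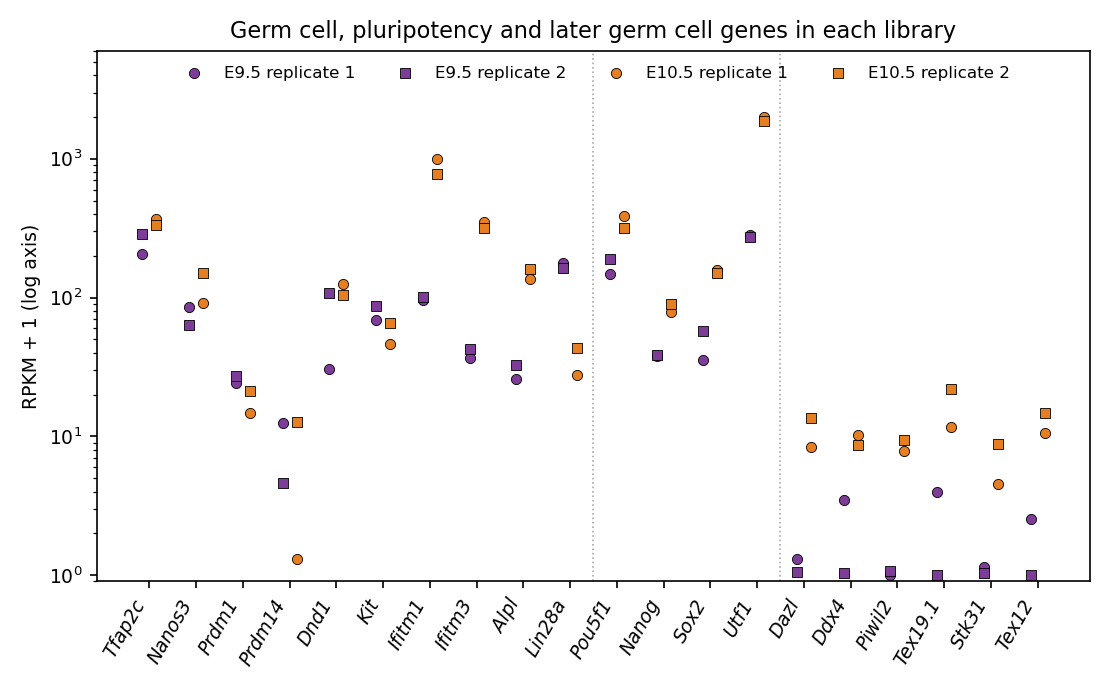
RPKM plus 1 on a log axis (vertical) for 20 genes (horizontal) of germ cell identity, pluripotency and later germ cells, separated by dotted lines, with 1 symbol per library. Ifitm1, Ifitm3, Alpl, Sox2 and Utf1 show both E10.5 symbols clear above both E9.5 symbols, Lin28a shows the reverse, and the symbols of Prdm14 and Dnd1 interleave.

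Among pluripotency genes, 4 of 16 tested were higher at E10.5, 2 were lower and 10 did not pass (median difference 0.74). Utf1, a chromatin factor of embryonic stem cells, read 283 and 274 RPKM at E9.5 and 1982 and 1861 RPKM at E10.5 (6.90-fold, log2 difference 2.78 ± 0.23, adjusted p = 7.32e-05). Sox2, the partner of Pou5f1, rose from 34.4 and 56.7 to 157 and 148 RPKM (3.36-fold, 1.77 ± 0.24, adjusted p = 0.00157). At E11.5 Utf1 stood at 1884 and 1599 RPKM and Sox2 at 158 and 182 RPKM. Nanog, a homeobox factor of pluripotent cells that germ cells also need, read 37.0 and 37.6 and 77.5 and 89.3 RPKM (1.138 ± 0.31, adjusted p = 0.0290). Pou5f1, which encodes OCT4, read 147 and 189 and 388 and 317 RPKM (1.07 ± 0.30, adjusted p = 0.0344). For these last genes the stages did not overlap, but the calls were not firm: with any 1 of the 4 libraries left out neither passed, and adjusted p over the alternatives ran from 0.00284 to 0.125 for Nanog and from 0.00364 to 0.273 for Pou5f1. After quantile normalization Pou5f1 did not pass either. Accordingly 2 of the list were higher without any 1 of the 4 libraries.

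Fgf4 and Tbx3 were the pluripotency genes that fell. Fgf4, a growth factor that epiblast cells secrete, read 22.5 and 14.8 RPKM at E9.5 and was listed at 0 in both E10.5 and both E11.5 libraries (log2 difference -4.27 ± 0.40, adjusted p = 0.000158). Tbx3, a T-box factor also used in mesoderm, fell from 36.2 and 52.1 to 1.58 and 3.91 RPKM (-3.64 ± 0.53, adjusted p = 0.00187). Etv5, the highest member of the list that did not pass, read 76.4 and 91.1 and 101.4 and 94.9 RPKM.

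Genes of later germ cells and of the piRNA pathway, whose small RNAs silence transposons, started from very low levels. Of 17 tested, 10 were higher at E10.5 and 0 lower, with a median difference of 1.91, and 11 more stayed under the filter. Of the 10, 5 were under 1 RPKM in both E9.5 libraries and were tested only through E10.5: Dazl, Piwil2, Stk31, Tex14 and Slc25a31. With 1 library left out 8, 9, 7 and 10 were higher, in the 4 libraries alone 6, and under a filter on a mean level of 5 RPKM, which tested fewer genes, 4. Without weights 1 of the list was lower, and with all 18 libraries 2. Dazl read 0.310 and 0.0451 RPKM at E9.5, 7.31 and 12.6 RPKM at E10.5 and 87.2 and 109.9 RPKM at E11.5 (E10.5 against E9.5 3.18 ± 0.27, adjusted p = 7.32e-05). Piwil2, a PIWI protein that carries piRNAs, read 0 and 0.0766, 6.85 and 8.46 and 18.1 and 19.5 RPKM at the same stages (3.05 ± 0.44, adjusted p = 0.00178). Their E10.5 values thus lay above E9.5 and below E11.5, without a test of the second step. Ddx4, the VASA helicase, read 2.46 and 0.0419 RPKM at E9.5 and 9.18 and 7.68 RPKM at E10.5 (2.31 ± 0.47, adjusted p = 0.00905), its E9.5 signal lying in 1 library. Tex19.1, which restrains transposons in germ cells, read 2.95 and 0 and 10.7 and 21.1 RPKM (3.01 ± 0.52, adjusted p = 0.00422). Its paralogue Tex19.2 read 0.0151 and 0 and 24.7 and 14.9 RPKM (4.33 ± 0.30, adjusted p = 2.66e-05), and reads shared by these copies make both uncertain. Ddx4 lost its call in the fit of the 4 libraries alone, without E9.5 replicate 2 and without E10.5 replicate 1 (adjusted p from 0.00219 to 0.0851 over the alternatives), and Tex19.1 in the fit of the 4 libraries alone (from 0.00156 to 0.0644).

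Meiosis genes were mostly near the filter. Of 23 listed, 8 were tested, 2 of them higher at E10.5 and 0 lower, with a median difference of -0.18. Of these 2 risers, Smc1b was under 1 RPKM in both E9.5 libraries and was tested only through E10.5. Tex12, a component of the synaptonemal complex that joins homologous chromosomes, read 1.54 and 0 RPKM at E9.5, 9.54 and 13.8 RPKM at E10.5 and 57.1 and 77.2 RPKM at E11.5 (2.97 ± 0.42, adjusted p = 0.00171). Smc1b, the meiotic cohesin subunit, read 0.0151 and 0.00768 and 2.80 and 1.94 RPKM (1.72 ± 0.40, adjusted p = 0.0147), a difference that did not pass with a pseudocount of 5, with values under 1 RPKM set to 1, in the 4 libraries alone, or without either E9.5 library or E10.5 replicate 1 (from 0.000826 to 0.242). Syce2, another synaptonemal protein, read 7.09 and 4.997 and 6.96 and 3.52 RPKM and did not pass.

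The promoters of the later germ cell and meiosis genes that rose were read for shared letters. RefSeq sequences of build GRCr8, from 250 bases before to 50 after the start of a gene, were matched by symbol for 11 of these 12 risers and for 7624 of the 11686 tested genes with 1 line per symbol (65.2%). The letters CACGTG, the palindromic E-box read by basic helix-loop-helix factors, occurred in 5 of the 11 (45.5%), namely Brdt, Ddx4, Slc25a31, Stk31 and Tex12, against 10.05% of all 7624 promoters and 11.2% of the 500 of genes that rose. Over all 21 promoters of tested genes of these lists, called or not, there were 6 with a match (28.57%). Among the 11, Dazl, Slc25a31, Smc1b, Stk31 and Tex14 were under 1 RPKM in both E9.5 libraries and entered the test only through E10.5. The lists were also chosen with these data known. The shares given for this motif and for those below therefore describe the promoters, and no difference between shares was tested. Stk31, a germ cell kinase-like gene shown here because it holds a match, read 0.152 and 0.0272 RPKM at E9.5 and 3.53 and 7.77 RPKM at E10.5 (2.53 ± 0.32, adjusted p = 0.00103) and was chosen after its values were seen. Of the 4 promoters printed, each 5′ to 3′ on the strand of its gene with CACGTG in capitals, those of Ddx4 (chr2:46015902-46016201, minus strand), Stk31 (chr4:79701491-79701790, plus strand) and Tex12 (chr8:59809509-59809808, minus strand) hold 1 match each, and that of Dazl (chr9:18193113-18193412, plus strand), the gene of the group with the largest log2 difference, holds 0.
Ddx4: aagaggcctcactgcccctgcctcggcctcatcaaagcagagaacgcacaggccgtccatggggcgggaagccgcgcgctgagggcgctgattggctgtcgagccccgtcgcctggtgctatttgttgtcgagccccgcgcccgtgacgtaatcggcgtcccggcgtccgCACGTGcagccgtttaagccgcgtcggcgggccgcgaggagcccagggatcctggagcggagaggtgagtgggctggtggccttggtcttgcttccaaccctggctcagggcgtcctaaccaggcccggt
Stk31: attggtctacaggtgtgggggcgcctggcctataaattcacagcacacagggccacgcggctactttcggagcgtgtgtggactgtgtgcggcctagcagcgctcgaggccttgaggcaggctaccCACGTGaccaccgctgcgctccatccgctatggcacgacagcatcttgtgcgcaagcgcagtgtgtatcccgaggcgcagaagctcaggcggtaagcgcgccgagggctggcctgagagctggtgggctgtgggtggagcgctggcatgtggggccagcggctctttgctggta
Tex12: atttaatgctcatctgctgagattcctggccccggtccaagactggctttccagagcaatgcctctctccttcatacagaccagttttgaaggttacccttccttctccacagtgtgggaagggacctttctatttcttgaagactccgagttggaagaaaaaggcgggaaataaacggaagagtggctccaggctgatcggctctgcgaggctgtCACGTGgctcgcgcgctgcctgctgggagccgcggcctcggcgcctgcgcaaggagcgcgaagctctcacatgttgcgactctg
Dazl: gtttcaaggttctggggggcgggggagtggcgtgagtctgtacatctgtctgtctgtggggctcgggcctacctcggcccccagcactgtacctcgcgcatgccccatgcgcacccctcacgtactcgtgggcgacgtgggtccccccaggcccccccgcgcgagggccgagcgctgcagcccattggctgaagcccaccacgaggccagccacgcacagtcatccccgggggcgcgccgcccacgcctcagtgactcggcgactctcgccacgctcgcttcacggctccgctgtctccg

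The 6 motifs were searched on both strands, each counted on its own also where matches share bases. GCGGGAA, letters of the E2F recognition sequence, occurred in 4 of the 11 promoters (36.4%; Ddx4, Smc1b, Tex12 and Tex14) and in 9.22% of all. GGCGCC occurred in 6 of the 11 (54.5%) and in 22.9% of all, and CCAAT, the letters of the NF-Y box, in 6 (54.5%) and in 38.4%. The TATA letters TATAAA were found in 2 (18.2%) and in 6.19%, and GCCNNNGGC, the form read by TFAP2 proteins, in 2 (18.2%) and in 26.04%. Over the 21 promoters of all tested members the matches numbered 5 for GCGGGAA (23.81%), 7 for GGCGCC (33.33%), 11 for CCAAT (52.38%), 3 for TATAAA (14.29%) and 3 for GCCNNNGGC (14.29%). The median number of CpG dinucleotides was 17 in the 11 promoters, 20 in those of genes that rose, 22 in those of genes that fell and 22 in all. The motifs were searched with the levels of these genes known, and a match describes letters and not binding.

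With small RNA, ribosomal protein and provisional names set aside, most of the largest rises beyond the lists were of genes close to 0 at E9.5. Ctrb1, a chymotrypsinogen of the pancreas, read 0.515 and 0 RPKM at E9.5 and 24.6 and 28.9 RPKM at E10.5 (4.49 ± 0.53, adjusted p = 0.000702), and Ctrc, a related protease, was listed at 0 in both E9.5 libraries and read 3.70 and 6.33 RPKM at E10.5 (2.55 ± 0.46, adjusted p = 0.00514). Both were low again at E11.5, with 1.37 and 0.604 RPKM for Ctrb1 and 0.982 and 0.403 RPKM for Ctrc. Other risers kept their signal at E11.5. Pramef12, of the PRAME family of germ line genes, read 0.0245 and 0, 17.9 and 22.7 and 44.3 and 63.7 RPKM at E9.5, E10.5 and E11.5 (4.39 ± 0.34, adjusted p = 6.18e-05). Tcl1a, a co-activator of AKT kinase, read 0 and 2.24, 29.1 and 36.4 and 91.4 and 95.6 RPKM (4.22 ± 0.42, adjusted p = 0.000244). Rbmxl2, an RNA-binding protein of the testis, read 2.37 and 5.06, 67.3 and 95.0 and 73.7 and 52.9 RPKM (4.16 ± 0.35, adjusted p = 7.32e-05).

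The other large risers included transcription factors and enzymes. Msc, the basic helix-loop-helix repressor musculin, read 0 and 0.433 RPKM at E9.5 and 22.3 and 15.5 RPKM at E10.5 (4.04 ± 0.62, adjusted p = 0.00242). Mt3, a metallothionein, read 0.829 and 0.983 and 23.8 and 28.9 RPKM (3.84 ± 0.54, adjusted p = 0.00171), and Olah, a thioesterase of fatty acid synthesis, 0.148 and 1.44 and 15.2 and 21.4 RPKM (3.51 ± 0.52, adjusted p = 0.00212). Tuba3b, an alpha-tubulin with close copies elsewhere, read 1.64 and 0.554 and 37.7 and 26.8 RPKM (4.02 ± 0.27, adjusted p = 2.66e-05). Listed at 0 in both E9.5 libraries were the cancer-testis gene Sage1 with 8.52 and 17.0 RPKM at E10.5 (3.71 ± 0.51, adjusted p = 0.00162), the homeobox gene Rhox13 with 10.4 and 5.01 RPKM (3.05 ± 0.41, adjusted p = 0.00155), and Cox7b2, a cytochrome oxidase subunit of germ cells, with 8.32 and 25.98 RPKM (3.99 ± 0.80, adjusted p = 0.00806). Cox7b2 alone of these did not pass with a pseudocount of 5 or without either E9.5 library or E10.5 replicate 2 (from 0.000412 to 0.0649). Rhox genes also have close copies.

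Many mesoderm and body patterning genes fell. Of 14 tested genes of the primitive streak and caudal mesoderm, 8 were lower at E10.5 and 0 higher (median -2.20). Snai1, a driver of the epithelial to mesenchymal change, read 82.2 and 73.8 RPKM at E9.5 and 0 and 1.99 RPKM at E10.5 (-5.51 ± 0.59, adjusted p = 0.000398). Msgn1, a factor of presomitic mesoderm, read 14.3 and 12.1 RPKM and was then listed at 0 in both libraries (-3.83 ± 0.38, adjusted p = 0.000225). Cyp26a1, which degrades retinoic acid, read 36.6 and 30.4 and 1.02 and 0 RPKM (-4.60 ± 0.65, adjusted p = 0.00170). Cdx1, a caudal homeobox gene, read 42.8 and 152 and 25.5 and 18.9 RPKM and did not pass (adjusted p = 0.0941). Of 19 Hox genes tested, 11 were lower and 0 higher (median -2.22), with Hoxb6 at 41.8 and 21.4 RPKM at E9.5 and at 0 in both E10.5 libraries (-4.95 ± 0.70, adjusted p = 0.00171) and Hoxc10 at 17.9 and 11.8 and 0.737 and 0.519 RPKM (-3.26 ± 0.48, adjusted p = 0.00212). Hoxd9, at 11.8 and 23.0 and 3.76 and 9.03 RPKM, did not pass. Of the genes that fell, 3 of the 8 streak genes and 9 of the 11 Hox genes were under 1 RPKM in both E10.5 libraries. With 1 library left out 5, 4, 6 and 4 streak genes and 6, 8, 8 and 7 Hox genes were lower, and with a pseudocount of 0.1 neither Cyp26a1 (adjusted p from 4.89e-05 to 0.0581 over the alternatives) nor Hoxc10 (from 2.05e-05 to 0.0776) passed.

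Markers of extraembryonic mesoderm and allantois, the tissue beside which germ cells arise, fell in 7 of 10 tested genes (median -2.57). Tbx4, a T-box gene of the allantois and hindlimb, fell from 72.7 and 77.2 to 3.14 and 1.27 RPKM (34.0-fold, -4.63 ± 0.65, adjusted p = 0.00166). Pitx1, at 24.7 and 29.0 RPKM, and Foxf1, at 24.6 and 29.5 RPKM, were listed at 0 in both E10.5 libraries (-4.80 ± 0.39, adjusted p = 6.84e-05 for Pitx1 and -4.81 ± 0.67, adjusted p = 0.00168 for Foxf1). Among mesenchyme and matrix genes 11 of 15 were lower (median -2.56). Prrx2, a homeobox gene of mesenchyme, fell from 116 and 120.0 to 4.45 and 1.21 RPKM (41.7-fold, -5.10 ± 0.64, adjusted p = 0.000976), and Twist1 from 34.2 and 27.1 to 1.26 and 0 RPKM (-4.39 ± 0.69, adjusted p = 0.00283). Zeb1 read 12.01 and 9.91 and 0.817 and 3.34 RPKM and did not pass (adjusted p = 0.0526). With a pseudocount of 0.1 neither Prrx2 (from 2.94e-05 to 0.0582) nor Twist1 (from 7.06e-05 to 0.0586) passed. Of the genes that fell, 6 of the 7 allantois genes and 6 of the 11 mesenchyme genes were under 1 RPKM in both E10.5 libraries. With 1 library left out 7, 6, 6 and 6 allantois genes and 6, 6, 6 and 5 mesenchyme genes were lower, and under a filter on a mean level of 5 RPKM, which tested fewer genes, 4 and 6.

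Endothelial genes were lower in 8 of 14 cases (median -2.34), and the E9.5 replicates differed in them. Etv2, the factor that founds the blood vessel lineage, read 73.9 and 65.8 RPKM at E9.5 and was listed at 0 in both E10.5 and both E11.5 libraries (-6.14 ± 0.43, adjusted p = 2.66e-05). Kdr, the receptor for vascular endothelial growth factor, read 55.2 and 25.3 RPKM and then 0 (-5.26 ± 0.52, adjusted p = 0.000225). Lmo2, a partner in blood and vessel gene regulation, read 100.6 and 26.3 and 0 and 4.85 RPKM (-4.45 ± 0.82, adjusted p = 0.00551), and did not pass without E9.5 replicate 1 (from 0.000937 to 0.0662). Plvap read 64.5 and 21.1 and 16.5 and 4.69 RPKM and did not pass, nor did Tek, Tie1, Cdh5, Erg and Egfl7. Cdh5, VE-cadherin, read 2.83 and 0 and 0.926 and 1.19 RPKM, and Tie1 read 1.76 and 0 and 1.36 and 0 RPKM. For both genes the stages overlapped. Cldn5, at 27.4 RPKM, and Sox18, at 9.14 RPKM, were above 0 only in E9.5 replicate 1 of the 4 libraries and stayed under the filter. Of the 8 genes that fell, 4 were under 1 RPKM in both E10.5 libraries. Endothelial genes lower with 1 library left out numbered 3, 7, 5 and 3, and 3 in the 4 libraries alone. Of 18 blood genes only Tal1 was tested, at 23.4 and 2.82 RPKM and then at 0 in both libraries (-3.27 ± 0.70, adjusted p = 0.0105, from 0.00101 to 0.0702 over the alternatives, not passing in the 4 libraries alone or without E10.5 replicate 1), and 14 of the list were at 0 in both E10.5 libraries against 8 in both E9.5 libraries. Tal1 was thus under 1 RPKM in both E10.5 libraries and was tested only through E9.5. Of 12 tested genes of hindgut and definitive endoderm, 4 were lower (median -1.29), and 2 of the 4 were under 1 RPKM in both E10.5 libraries. Krt8, a keratin of simple epithelia, fell from 297 and 178 to 16.8 and 6.09 RPKM (-4.36 ± 0.71, adjusted p = 0.00344). Gata4 went from 13.3 and 27.7 RPKM to 0 (-4.34 ± 0.47, adjusted p = 0.000433), and Krt18 at 144 and 91.4 and 61.8 and 60.7 RPKM did not pass.

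The summed levels show how much of these markers each library held. The endothelium list summed to 605 and 201 RPKM in the E9.5 replicates, to 45.9 and 25.5 RPKM at E10.5 and to 12.8 and 24.9 RPKM at E11.5. Mesenchyme summed to 344 and 364 RPKM at E9.5 and to 48.6 and 45.4 RPKM at E10.5. The allantois list summed to 156 and 172 RPKM and then to 4.598 and 5.01 RPKM, and the endoderm list to 549 and 503 RPKM and then to 107 and 102 RPKM. Blood markers summed to 32.4 and 8.31 RPKM at E9.5 and to 2.181 and 2.26 RPKM at E10.5. The lists of visceral endoderm (17.1 and 30.7, then 2.27 and 15.1 RPKM), of neural and surface ectoderm (18.6 and 28.0, then 11.8 and 20.7 RPKM) and of gonadal somatic cells (19.3 and 38.7, then 8.58 and 4.54 RPKM) were low at both stages. Listed at 0 in both E10.5 libraries were 9 of the 14 allantois markers, 11 of 22 mesenchyme markers, 8 of 19 endothelial markers and 11 of 21 endoderm markers, against 1, 2, 0 and 4 in both E9.5 libraries. These counts, and those of blood genes above, include genes under the filter and have no share over all genes beside them. Among the 11873 tested genes, 473 were at 0 in both E10.5 libraries and 44 in both E9.5 libraries. Relative depth was 19.8% and 21.1% at E10.5, and its part in these zeros was not tested. The germ cell list summed to 934 and 1279 RPKM at E9.5 and to 2403 and 2302 RPKM at E10.5. Much of that rise lay in Ifitm1, at 94.3 and 99.1 and then 991 and 777 RPKM, and in Ifitm3. Of its 14 tested members 4 were higher, 1 was lower and 9 did not pass. In bulk libraries fewer cells of a type and less RNA per cell cannot be told apart. The part of other cell types in the differences reported here was not tested.

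**Figure D4:**
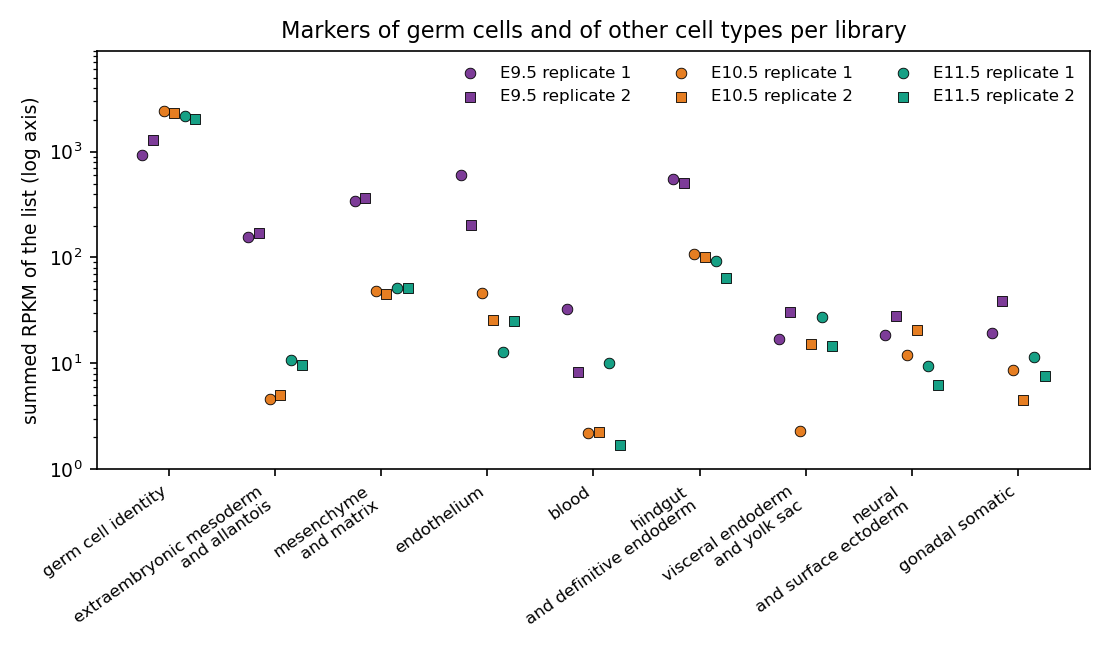
Summed RPKM of each marker list (vertical, log axis) for germ cells and 8 other cell types (horizontal), with 1 symbol per library of E9.5, E10.5 and E11.5. The allantois, mesenchyme, endothelium and endoderm lists have both E9.5 symbols above those of the later stages, whereas the germ cell list has the E9.5 symbols below, at 934 and 1279 RPKM. Much of the germ cell rise lies in Ifitm1 and Ifitm3.

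**Figure D5:**
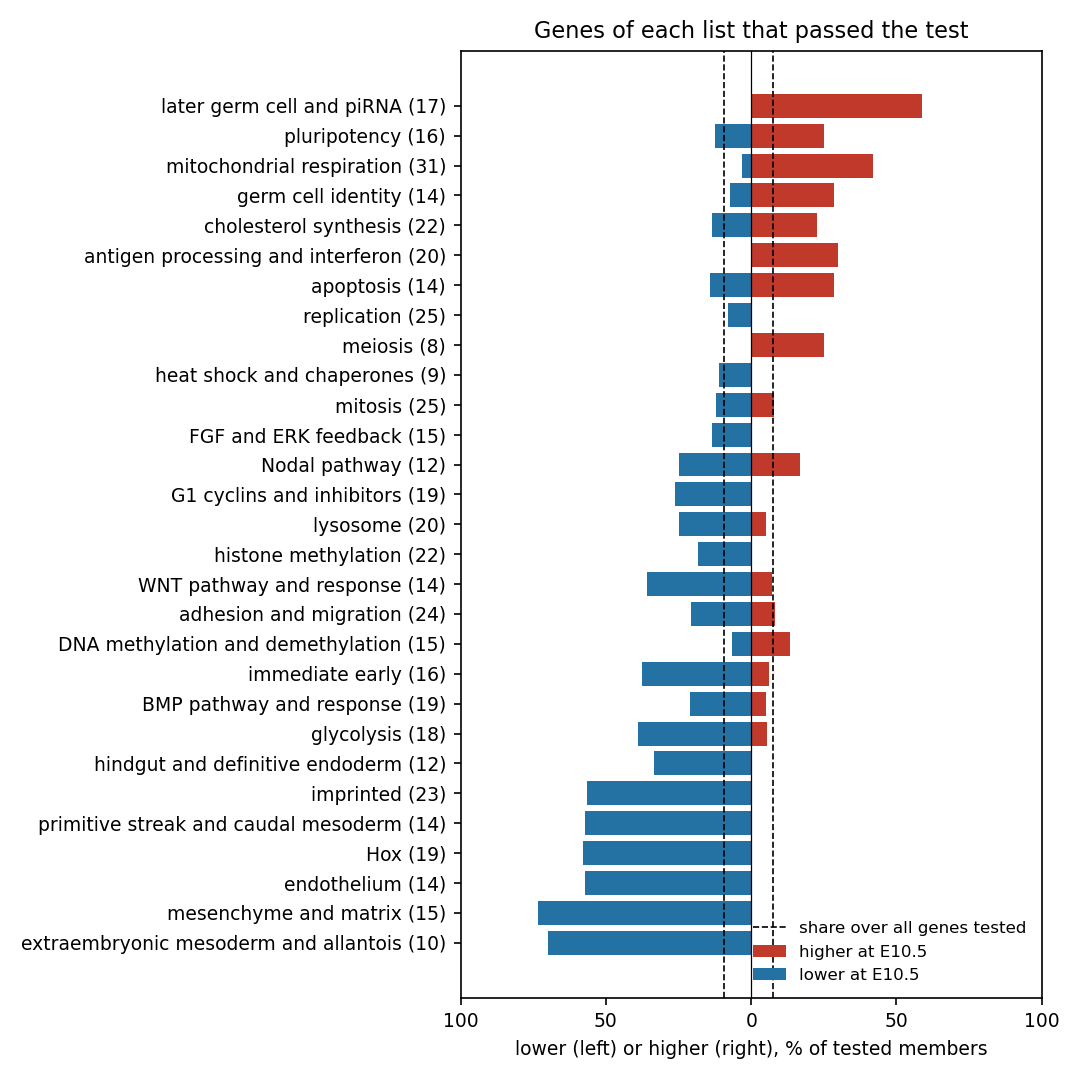
Share of the tested members of each list (number in brackets) that passed as higher (red, right) or lower (blue, left) at E10.5, in percent, ordered by median difference, with dashed lines at the shares over all tested genes of 7.49% and 9.52%. The later germ cell list reaches 10 of 17 on the right, and the allantois, mesenchyme, Hox, streak, endothelium and imprinted lists pass the middle of the left axis. The filter set the direction of 5 of the 10 later germ cell calls, 6 of 7 allantois, 6 of 11 mesenchyme and 9 of 11 Hox calls. It also set that of 3 of 8 streak, 4 of 8 endothelium and 1 of 13 imprinted calls. The bars describe the tested members without supporting a direction.

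Signalling genes were counted by pathway. In the BMP group 4 of 19 tested genes were lower and 1 higher, and with 1 library left out 2, 2, 2 and 4 were lower and 0 higher. The target Msx1 fell from 378 and 391 to 50.7 and 48.0 RPKM (7.78-fold, -2.94 ± 0.38, adjusted p = 0.00138) and Msx2 from 248 and 209 to 87.9 and 73.8 RPKM (-1.49 ± 0.29, adjusted p = 0.00685), with 2.36 and 1.30 and 29.3 and 30.1 RPKM at E11.5. Id3, another target, read 619 and 541 and 1081 and 952 RPKM (0.81 ± 0.20, adjusted p = 0.0199), and Id1 646 and 432 and 398 and 265 RPKM without passing (adjusted p = 0.0830). The rise of Id3 did not pass after quantile normalization, in the 4 libraries alone or without any 1 of the 4 (from 0.000943 to 0.399), and the fall of Msx2 not without E9.5 replicate 1 (from 0.000479 to 0.0599).

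Of 15 FGF and ERK feedback genes 2 were lower and 0 higher, near the share of 9.52% lower over all genes. Both were ligands, and another ligand of the list, Fgf17, read 4.67 and 2.84 and 1.97 and 0 RPKM and did not pass. Fgf8 fell from 100.6 and 113 to 1.43 and 5.03 RPKM (33.1-fold, -4.82 ± 0.85, adjusted p = 0.00469). Fgf3 read 68.8 and 20.7 RPKM at E9.5 and was listed at 0 at E10.5 and E11.5 (-5.28 ± 0.53, adjusted p = 0.000244). Dusp6, a phosphatase that answers to ERK signalling, read 58.0 and 84.3 and 40.9 and 51.2 RPKM and did not pass. In the Nodal group 2 of 12 were higher and 3 lower, and with 1 library left out 1, 2, 2 and 1 were higher and 1, 2, 2 and 2 lower. Nodal itself read 0 and 2.29 RPKM at E9.5, 19.6 and 28.8 RPKM at E10.5 and 31.2 and 37.2 RPKM at E11.5 (3.77 ± 0.52, adjusted p = 0.00162), while its co-receptor Cfc1 fell from 64.7 and 50.8 to 0 and 1.91 RPKM (-5.09 ± 0.53, adjusted p = 0.000285). Its receptor subunit Acvr2b read 72.4 and 71.2 and 121 and 98.6 RPKM and did not pass.

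In the WNT group 5 of 14 were lower and 1 higher. Wnt5a, a ligand of the non-canonical branch, fell from 49.99 and 61.0 to 4.09 and 6.09 RPKM (-3.23 ± 0.65, adjusted p = 0.00800). Tcf7l1, the repressor of WNT targets, rose from 4.81 and 17.8 to 43.2 and 46.2 RPKM (2.13 ± 0.44, adjusted p = 0.00905), and Tcf7 at 46.0 and 80.7 and 32.5 and 45.7 RPKM did not pass. Neither call was firm, since Wnt5a did not pass with a pseudocount of 0.1, without E9.5 replicate 2 or without E10.5 replicate 1 (from 7.80e-05 to 0.111), and Tcf7l1 not in the 4 libraries alone or without E10.5 replicate 1 (from 0.000829 to 0.0690). Without E10.5 replicate 1 the count of WNT genes lower at E10.5 was 0, and it was 1 to 3 without each of the others.

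By log2 difference, the largest fall among the named genes was that of Cdkn1c, an imprinted gene for the cell cycle inhibitor p57. It read 1301 and 773 RPKM at E9.5, 11.3 and 7.56 RPKM at E10.5 and 16.8 and 8.76 RPKM at E11.5, a 109.7-fold drop of the mean from E9.5 to E10.5 (-6.61 ± 0.44, adjusted p = 2.66e-05), a call that held in all alternatives. Imprinted genes, which are expressed from the copy of 1 parent, were lower in 13 of 23 tested and higher in 0 (median -1.34). Mest, a paternally expressed gene of mesoderm, fell from 251 and 191 to 15.5 and 1.73 RPKM (25.7-fold, -5.04 ± 0.84, adjusted p = 0.00360). Nnat read 15.1 and 79.8 and 18.9 and 15.6 RPKM and did not pass. The list summed to 3075 and 2165 RPKM at E9.5 and to 495 and 432 RPKM at E10.5. Leaving out 1 of the 4 libraries left 3 to 5 imprinted genes lower, with 4 without E9.5 replicate 1, 3 without E9.5 replicate 2 and 5 without either E10.5 library.

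Cell division genes were counted in 3 lists. Of 25 replication genes 0 were higher and 2 lower, or 0, 0, 0 and 1 lower with 1 library left out, and Pcna, the clamp of DNA polymerase, read 547 and 432 and 651 and 521 RPKM. Of 25 mitosis genes 2 were higher and 3 lower, and with 1 library left out 1, 1, 1 and 2 were higher and 0, 1, 1 and 2 lower. Birc5, the survivin subunit of the chromosomal passenger complex, rose from 107 and 107 to 355 and 317 RPKM (3.14-fold, 1.64 ± 0.19, adjusted p = 0.000587), whereas Ccnb1, the mitotic cyclin, read 432 and 395 and 336 and 319.5 RPKM and did not pass. Among G1 cyclins and inhibitors 5 of 19 were lower and 0 higher, with Cdkn1c first and Ccnd1, cyclin D1, at 20.8 and 33.7 and 1.88 and 1.60 RPKM (15.7-fold, -3.33 ± 0.55, adjusted p = 0.00344). Of these, 2, 3, 3 and 3 were lower with 1 library left out. Their kinase Cdk4 read 904 and 838 and 1036 and 864 RPKM and did not pass (adjusted p = 0.768).

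Of 15 genes of DNA methylation and demethylation 2 were higher and 1 lower, and with 1 library left out 1, 0, 0 and 2 were higher and 0, 0, 1 and 2 lower. Gadd45a, a stress-induced gene linked to DNA repair and demethylation, rose from 84.0 and 80.1 to 202 and 172 RPKM (1.17 ± 0.23, adjusted p = 0.00750), and its relative Gadd45g fell from 81.8 and 52.9 to 4.48 and 0 RPKM (-4.83 ± 0.92, adjusted p = 0.00652). Trim28, the co-repressor of KRAB zinc finger proteins, read 342 and 311 and 321 and 292 RPKM and did not pass. Of 22 histone methylation genes 4 were lower and 0 higher. Kdm3a, a demethylase of histone H3 lysine 9, fell from 50.2 and 43.3 to 10.3 and 10.1 RPKM (4.59-fold, -2.09 ± 0.29, adjusted p = 0.00166), and Eed, a core subunit of Polycomb repressive complex PRC2, read 116 and 91.1 and 87.2 and 65.7 RPKM without passing. Gadd45a lost its call without E9.5 replicate 2 or E10.5 replicate 1 (from 0.000794 to 0.0627) and Gadd45g without either E9.5 library (from 0.000664 to 0.0672), and with 1 library left out 3, 1, 1 and 2 histone methylation genes were lower.

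Adhesion and junction genes passed in both directions. Of 24 tested, 2 were higher and 5 lower. Gja1, the gap junction protein connexin 43, read 91.9 and 98.7 RPKM at E9.5 and 0.454 and 0.0473 RPKM at E10.5 (-6.28 ± 0.94, adjusted p = 0.00218). Cdh2, N-cadherin, fell from 25.7 and 36.8 to 1.53 and 0.769 RPKM (27.2-fold, -3.91 ± 0.63, adjusted p = 0.00329), and Epcam, an epithelial adhesion molecule, read 189 and 172 and 261 and 269 RPKM and did not pass (adjusted p = 0.0647). The calls of Gja1 and Cdh2 held in all alternatives, but with 1 library left out the list had 2, 3, 3 and 2 lower and 1, 2, 1 and 1 higher.

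Immediate early genes, which respond to stimuli without new protein synthesis, were lower in 6 of 16 and higher in 1. Fos fell from 86.5 and 117 to 20.6 and 14.97 RPKM (-2.45 ± 0.24, adjusted p = 0.000224) and stood at 90.7 and 110.1 RPKM at E11.5. Jun fell from 38.1 and 34.5 to 0 and 1.25 RPKM (-4.64 ± 0.68, adjusted p = 0.00199), and Atf3 from 9.82 and 4.79 RPKM to 0 in both libraries (-2.98 ± 0.54, adjusted p = 0.00516). The related Jund rose instead, from 8.50 and 6.63 to 68.1 and 72.4 RPKM (9.28-fold, 3.06 ± 0.39, adjusted p = 0.00113), with 13.3 and 16.02 RPKM at E11.5. Cyr61 read 72.4 and 54.2 and 30.6 and 59.0 RPKM and did not pass. In the chaperone group 1 of 9 was lower: Hspa5, the chaperone BiP of the endoplasmic reticulum, fell from 1166 and 1088 to 502 and 452 RPKM (2.36-fold, -1.24 ± 0.16, adjusted p = 0.00145), whereas Hsp90ab1 read 1176 and 1026 and 906 and 935 RPKM and did not pass.

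Energy genes passed mostly in opposite directions. Of 31 genes of mitochondrial respiration 13 were higher and 1 lower (median 0.63), while of 18 glycolysis genes 1 was higher and 7 lower (median -0.82). Cox5a, a subunit of cytochrome oxidase, rose from 174 and 115 to 514 and 445 RPKM (3.31-fold, 1.75 ± 0.27, adjusted p = 0.00243), and Cox7c, another, from 487 and 336 to 1467 and 1159 RPKM (1.69 ± 0.30, adjusted p = 0.00485). Atp5b, of the ATP synthase, read 1397 and 1232 and 1474 and 1388 RPKM and did not pass. Ldhb, the lactate dehydrogenase subunit of oxidative tissues, rose from 464 and 586 to 1174 and 1064 RPKM (1.10 ± 0.19, adjusted p = 0.00374), and Slc16a1, a lactate transporter, fell from 241 and 241 to 84.6 and 118 RPKM (-1.27 ± 0.27, adjusted p = 0.0100). Aldoa, the highest glycolysis gene that did not pass, read 1284 and 1139 and 1164 and 925 RPKM. The class of ribosomal protein genes, chosen after seeing the data, had 36 of 65 members higher, 0 lower and a median difference of 1.11, against 30 higher, 1 lower and a median of 0.84 after quantile normalization. Without E9.5 replicate 2 only 7 of these passed as higher and without E10.5 replicate 1 only 8. The libraries' RPKM summed to 675650 and 603420 at E9.5 and to 849182 and 760137 at E10.5. The part of gene length and library composition in these rises was not tested. The respiration genes higher at E10.5 numbered 10 and 2 without E9.5 replicates 1 and 2, and 5 and 8 without E10.5 replicates 1 and 2. The glycolysis genes lower at E10.5 then numbered 2, 1, 2 and 5. Cox7c did not pass without E9.5 replicate 2 (from 8.28e-05 to 0.0595), Ldhb after quantile normalization (from 9.81e-05 to 0.0984), and Slc16a1 without either E9.5 library or E10.5 replicate 1 (from 0.000277 to 0.0842).

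Of the remaining groups, antigen processing and interferon genes were higher in 6 of 20 and lower in 0. Isg15, a ubiquitin-like protein induced by interferon, rose from 38.8 and 29.0 to 139 and 115 RPKM (3.75-fold, 1.88 ± 0.29, adjusted p = 0.00234), and Psmb9, an immunoproteasome subunit, from 81.2 and 98.5 to 356 and 271 RPKM (1.78 ± 0.33, adjusted p = 0.00549), while Tapbp at 172 and 236 and 209 and 274 RPKM did not pass. Cholesterol synthesis genes were higher in 5 of 22 and lower in 3. Fdps, which makes farnesyl diphosphate, rose from 233 and 167 to 435 and 411 RPKM (1.10 ± 0.21, adjusted p = 0.00696), and Cyp51, which removes a methyl group from lanosterol, fell from 116 and 72.1 to 31.8 and 37.4 RPKM (-1.38 ± 0.27, adjusted p = 0.00739). Lysosome genes were higher in 1 of 20 and lower in 5, with the cathepsin Ctsz at 190.4 and 192 and 64.1 and 66.6 RPKM (-1.53 ± 0.30, adjusted p = 0.00713). Apoptosis genes were higher in 4 of 14, Birc5 among them, and lower in 2, and the effector Bax read 253 and 201 and 379 and 309.7 RPKM without passing (adjusted p = 0.0750). Without E9.5 replicate 1 Psmb9 and Cyp51 did not pass, without E9.5 replicate 2 Fdps and Ctsz did not, and without E10.5 replicate 1 Psmb9, Fdps and Cyp51 did not (adjusted p from 0.000483 to 0.0547 for Psmb9, 0.000256 to 0.0597 for Fdps, 0.000758 to 0.0597 for Cyp51 and 4.91e-05 to 0.0524 for Ctsz). Interferon genes higher with 1 library left out numbered 3, 4, 2 and 5. Cholesterol genes were then higher in 3, 5, 2 and 2 cases and lower in 0, 1, 2 and 1, and lysosome genes lower in 1, 0, 2 and 1 and higher in 0. Apoptosis genes were higher in 2, 2, 1 and 2 cases and lower in 0, 2, 0 and 1.

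Many of the genes listed at 0 in both E10.5 libraries with the highest E9.5 means bore names of small nucleolar RNAs, which the choice of named genes left out. With small RNA and provisional names set aside, the highest were Etv2, Fgf3, Nefm, Kdr, Ngfr and Fgfbp1. Nefm, a neurofilament subunit, read 47.9 and 34.0 RPKM at E9.5 (-5.37 ± 0.44, adjusted p = 7.32e-05), Fgfbp1, which releases FGF from the matrix, 40.0 and 24.2 RPKM (-5.01 ± 0.58, adjusted p = 0.000627), and Ngfr, the low-affinity neurotrophin receptor, 36.3 and 33.5 RPKM (-5.17 ± 0.95, adjusted p = 0.00557). Mmp2, a matrix metalloprotease just outside this set, read 57.8 and 58.8 and 1.59 and 0 RPKM (-5.20 ± 0.80, adjusted p = 0.00243). At E11.5 the values were 0.140 and 0 RPKM for Nefm, 0 and 0 RPKM for Fgfbp1 and 2.92 and 0 RPKM for Ngfr. Of the 473 genes at 0 in both E10.5 libraries, 196 were also at 0 in both E11.5 libraries, and 67 that passed as lower were above 0 in both E11.5 libraries. Ngfr did not pass without E9.5 replicate 2 (from 3.86e-05 to 0.0501). On the other side, of the 6 highest genes listed at 0 in both E9.5 libraries under the same choice of names, Slc25a31, an ADP/ATP carrier of sperm, read 5.43 and 4.18 RPKM at E10.5 (2.53 ± 0.49, adjusted p = 0.00674, not passing with a pseudocount of 5, from 0.000163 to 0.0798), and Traf1, an adaptor of tumour necrosis factor receptors, read 1.12 and 8.10 RPKM and did not pass (adjusted p = 0.0966).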

How the data were processed

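The authors deposited RPKM values, 1 column per library, per the labels and the table itself. Cufflinks 2.2.1, TopHat2 2.1.0, cutadapt 1.14 and bcl2fastq 2.18.0.12, and rn6 as genome build, are listed without role or order, per the submitters' processing notes. Not given in the sources used here are the annotation, strand use and how reads with several matches were counted. RNA was isolated with a PicoPure kit and amplified with SMART-Seq v4, per the labels' protocols.

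Values were log-transformed as log2(RPKM + 1), the pseudocount being 1. Lines with at least 1 RPKM in at least 2 of the 4 libraries entered limma 3.58.1 (R 4.3.3), fitted to the 12 germ cell libraries in 6 groups (6 residual degrees of freedom), with 1 variance weight per group, a variance trend on mean level and Benjamini-Hochberg adjustment over all 11873 genes. The weights were 0.52 at E9.5 and 0.54 at E10.5 against 0.91 to 1.92 in the other groups. Replicates differed by a median of 0.42 (log2) at E9.5 and 0.40 at E10.5. On simulated data with 11873 genes, 55% of changes of size 2 (log2) and 81% of size 3 were recovered in this comparison, and 4 unchanged genes were called. The simulated noise was normal, with a spread smoothed over genes of like level and without added zeros. Only genes well above the filter at E9.5 were changed, so these rates do not carry over to genes near 0.

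Replicate numbers were examined as a pairing. Over genes, the difference between replicates 1 and 2 at E9.5 correlated at 0.08 with that at E10.5. With 2 libraries per stage this correlation cannot tell whether the numbers pair the samples. The fit without the block is the one reported, and counts with the block are given below. Named genes are the 12 largest rises and falls whose mean in the higher stage was 10 RPKM or more, without overlap, up to 3 rises and 3 falls per list with the highest member that did not pass, 12 followed germ line genes, and the 6 highest genes at 0 in both libraries of a stage. Small RNA, ribosomal protein and provisional names were left out, a condition extended after values were seen, and not all genes under the rule are described. The 34 gene lists and the members were chosen with earlier results of these data known. Promoters came from RefSeq, build GRCr8. Columns of samples outside the series numbered 0. Plots used matplotlib 3.10.9 and Python 3.11.15.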

Additional observations from a re-analysis of the deposited data

How the results depend on the processing

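The count of 2019 genes depended most on how the spread was estimated and on single libraries. Without weights 3996 genes passed (1573 higher, 2423 lower), with all 18 libraries and no weights 4422 (1722 higher, 2700 lower), and with the 4 libraries alone 1274 (565 higher, 709 lower). Leaving out 1 library in turn gave 707 to 1985 genes, 261 to 933 of them higher and 422 to 1098 lower, and the low values came from leaving out libraries of E9.5 or E10.5 (892 and 769 without E9.5 replicates 1 and 2, 707 and 1252 without E10.5 replicates 1 and 2). With 1 library of a stage left, that library kept the weight estimated for its stage from both, and the spread of each gene came from the other groups, so the lone library was assumed to vary like them. The other settings gave 1394 to 2398, 1394 of them with no filter, where more genes were tested. With the replicate number as a block, 1800 genes passed in the 12 libraries (802 higher, 998 lower) and 2398 in the 4 libraries alone (1108 and 1290). With only 2 pairs, correlated at 0.08, whether the numbers pair the samples could not be told.

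Of 85 named genes that passed, 56 passed in all alternatives that gave a value, 29 did not pass in at least 1, and 0 changed sign. Of 32 that did not pass, 14 did so in 1 to 6 alternatives. Some genes that did not pass changed sign: after quantile normalization Atp5b to -0.59, Cdk4 to -0.48, Pcna to -0.27, Tapbp to -0.13 and Syce2 to 0.28. With 1 library left out in turn Cdk4 ran from -0.011 to 0.25, Eif2s3y from -1.75 to 1.08, Nnat from -2.15 to 0.17, Prdm14 from -2.55 to 0.72 and Syce2 from -0.62 to 0.19. With a pseudocount of 0.1 the genes lower at E10.5 numbered 5 in the Hox list, 4 in the mesenchyme list and 7 in the imprinted list. Under a filter on a mean level of 5 RPKM, which tested fewer genes, the allantois list had 4 lower, the Hox list 4, the mesenchyme list 6 and the later germ cell list 4 higher. Depth limits what a 0 at E10.5 can show for low genes.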
